A study of Drosophila melanogaster with 6 samples.

Results

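The small heat shock proteins of Drosophila were examined through 7 genes, Hsp22, Hsp23, Hsp26, Hsp27, Hsp67Ba, Hsp67Bc and l(2)efl, out of the 17494 genes in the deposited count table. They were listed by gene symbol, with earlier results of these data known. The table covers RNA sequencing of indirect flight muscle, the dorsolongitudinal fibres that power the wing beat, hand dissected from Drosophila melanogaster pupae at 64 h after puparium formation (APF). There were 3 WT libraries, from pupae carrying the Mef2-GAL4 driver with no RNAi transgene, and 3 M1BP RNAi libraries, in which the same driver expressed UAS-M1BP RNAi. The zinc finger protein M1BP activates transcription at promoters holding Motif-1, and the question was how the transcriptome of developing muscle responds to its depletion. Per the study's methods the driver acts at all stages of muscle formation, so depletion began before the stage sampled. The methods also state that the weaker of their RNAi lines was used, that pupae were staged at 25 °C, and that each sample pooled the muscles of 6 to 8 pupae. Sexes of the pooled pupae were not given. The libraries came from separate RNA preparations, and the p-values measure the spread between these preparations.

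Small heat shock proteins are built around a conserved alpha-crystallin domain and assemble into large oligomers that bind unfolding proteins without using ATP, keeping them in a state from which Hsp70 machines can refold them. In flies, most of their genes are switched on by the heat shock factor Hsf after heat or proteotoxic stress, and several are also transcribed without stress at the onset of metamorphosis under ecdysone control. The family is divided between compartments. Hsp22 resides in the mitochondrial matrix, Hsp27 enters the nucleus, and Hsp23 and Hsp26 are cytosolic. Hsp67Bc works with the BAG protein Starvin (stv) in chaperone-assisted autophagy, and l(2)efl resembles vertebrate alphaB-crystallin.

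The libraries held 42215400 to 54890681 counts. M1BP itself, the check of the labels, fell by 1.38 on the log2 scale (SE 0.15, adjusted p = 9.54e-04 in edgeR's quasi-likelihood test), from 8.00 to 3.07 CPM on average (CPM, counts per 1000000 counts of the TMM-scaled library). Of all genes, 8806 passed the filter on low counts, and the stricter of the rules used here asked for a change of at least 1.5-fold at an adjusted p of 0.001 or less. By that rule 194 genes (2.20% of those tested) were higher and 254 lower in M1BP RNAi. By the second rule, an adjusted p of 0.05 or less at any fold, 1212 genes (13.8%) were higher and 1489 (16.9%) lower. The second principal component set WT replicate 3 apart, and the male-specific RNA roX1 stood at 0.0414 and 0.206 CPM in WT replicates 1 and 2, at 22.3 CPM in WT replicate 3 and at 30.2 to 63.1 CPM in M1BP RNAi. The changes of the 6 members tested are therefore given with and without WT replicate 3. Against WT replicates 1 and 2 the sex make-up of the pools and M1BP depletion cannot be told apart.

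None of the 6 members tested was lower in M1BP RNAi, and Hsp22 and Hsp27 were higher at an adjusted p of 0.05. Hsp22 rose 2.65-fold and Hsp27 2.32-fold. Hsp23 was higher in all 3 M1BP RNAi libraries than in any WT library but had an adjusted p of 0.0566. Hsp26, Hsp67Bc and l(2)efl overlapped between the groups, and Hsp67Ba was too low to be tested. All M1BP RNAi libraries were thus above all WT libraries for 3 of the 6, as they were for 21.5% of all tested genes. The count at the second rule was 2 of 6, beside 13.8% of all genes, and the count at the stricter rule was 0 of 6, beside 2.20%. With edgeR's quasi-likelihood test 3 of the 6 were higher at an unadjusted p under 0.05, as were 18.9% of all tested genes. DESeq2 called 1 member, Hsp22, at the stricter rule, which it met for 6.08% of its tested genes in that direction. The median log2 fold change of the 6 members was 0.78, and all 6 values lay above 0, against a median of -0.02 over all tested genes, of which 48.6% lay above 0. In bulk muscle, more RNA per cell and more cells that carry a transcript cannot be told apart.

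**Figure D1:**
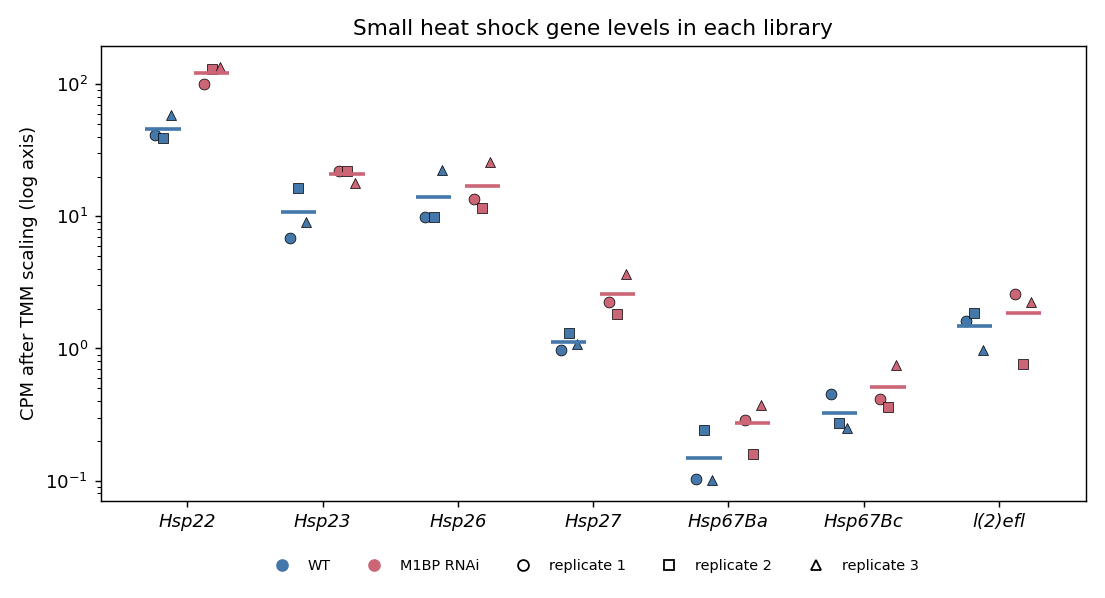
Level of each member in CPM after TMM scaling (log axis) in the 3 WT and 3 M1BP RNAi libraries, with marker shape giving the replicate number and bars the group means. The groups stand apart for Hsp22, Hsp23 and Hsp27 and overlap for the other 4 genes.

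Hsp22, the mitochondrial member, was the most abundant of the 7 genes in every library. Its levels were 41.4, 38.9 and 58.3 CPM in WT replicates 1 to 3 and 101, 130 and 136 CPM in M1BP RNAi replicates 1 to 3. The lowest depleted library was well above the highest WT library, which was WT replicate 3. The group means were 46.2 ± 10.6 and 122 ± 18.7 CPM (SD, n = 3), and edgeR's quasi-likelihood test gave a log2 fold change of 1.40 ± 0.19 (SE), with a 95% interval of 0.96 to 1.85 and an adjusted p of 0.00215. This change stood at percentile 95.9 of all tested genes. When any 1 of the 6 libraries was left out the adjusted p stayed at 0.0153 or less. Without WT replicate 3 it reached 4.47e-04, past the stricter threshold, at a log2 fold change of 1.65. That fit sets WT libraries nearly without roX1 against depleted libraries with it, so sex make-up and depletion cannot be told apart there. Against WT replicate 3 alone, the WT library with roX1, the M1BP RNAi mean was 2.10-fold, and against the mean of the other WT libraries it was 3.05-fold. With roX1 as a covariate the log2 fold change was 1.01, with an adjusted p of 0.0143.

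The reads of Hsp22 cannot be separated from those of a neighbour. All 1900 exon bases of Hsp22 (FBgn0001223, dm6, chromosome arm 3L, 9372931 to 9374964, plus strand) lie inside CG4456, also named Hsp67Bb, on the same strand. A transcript of 3 exons that carries the Hsp22 coding sequence is annotated in the same form for CG4456, and a second Hsp22 transcript is a single exon of 968 bases at the 3′ end. The authors' counting assigned shared reads to each gene, since CG4456 held only 4 reads beyond the 24458 of Hsp22 over all 6 libraries. CG4456 consequently gave the same log2 fold change, 1.40 ± 0.19 (SE), and is not a separate measurement. Which transcript the reads came from was not analysed here.

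Hsp23 and Hsp26 are cytosolic members that in WT muscle were present at like levels. Hsp23 (FBgn0001224, 3L, 9381882 to 9382765, plus strand) measured 6.91, 16.5 and 9.06 CPM in WT and 22.2, 22.1 and 18.0 CPM in M1BP RNAi. The WT values spread more than the depleted ones, because WT replicate 2 lay close to the depleted libraries. Counting error was much narrower than that gap, with exact Poisson 95% intervals of 6.19 to 7.69 CPM for WT replicate 1 and 15.0 to 18.0 CPM for WT replicate 2. The means were 10.8 ± 5.02 and 20.8 ± 2.40 CPM (SD, n = 3) and the log2 fold change was 0.95 ± 0.31 (SE), with a 95% interval of 0.22 to 1.68. Its edgeR adjusted p of 0.0566 fell to 0.00465 without WT replicate 2, with a log2 fold change of 1.40, and DESeq2 gave 0.0036. Without WT replicate 3 the log2 fold change was 0.90 and the edgeR adjusted p 0.0822. The 7 fat body marker genes summed to 108, 304 and 88.4 CPM in WT and to 288, 247 and 164 CPM in M1BP RNAi, so WT replicate 2 was highest in WT and M1BP RNAi replicate 3 lowest among the depleted libraries for these markers and for Hsp23. The part of fat body RNA in the Hsp23 values was not tested.

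Hsp26 (FBgn0001225, 3L, 9376418 to 9377427, minus strand) measured 9.81, 9.93 and 22.6 CPM in WT and 13.5, 11.5 and 26.0 CPM in M1BP RNAi. Its levels were set apart by library rather than by group, with replicate 3 of each group about level and well above the others. The means were 14.1 ± 7.37 and 17.0 ± 7.87 CPM (SD, n = 3). The log2 fold change of 0.26 ± 0.43 (SE) had an adjusted p of 0.694 and a 95% interval of -0.77 to 1.29, which holds falls and rises alike. The sign turned to -0.18 without M1BP RNAi replicate 3 and to -0.65 with roX1 as a covariate, and without WT replicate 3 the value was 0.83. The 6 epidermis marker genes were likewise highest in replicate 3 of each group, at 513 CPM against 120 and 125 CPM in the other WT libraries and at 269 CPM against 164 and 171 CPM in the other M1BP RNAi libraries. The part of adhering epidermis in the Hsp26 values was not tested.

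Hsp27 (FBgn0001226, 3L, 9384063 to 9385694, plus strand), the nuclear member, was scarce, with 38 to 47 counts in WT libraries and 91 to 187 in M1BP RNAi libraries. Its levels were 0.972, 1.31 and 1.08 CPM in WT and 2.26, 1.82 and 3.67 CPM in M1BP RNAi. The WT libraries lay close together, and all depleted libraries were above them, with M1BP RNAi replicate 3 highest. The means were 1.12 ± 0.170 and 2.59 ± 0.968 CPM (SD, n = 3), and the log2 fold change was 1.21 ± 0.30 (SE), with a 95% interval of 0.51 to 1.92 and an adjusted p of 0.0218. Without WT replicate 1 the adjusted p was 0.0755, and with roX1 as a covariate it was 0.169 at a log2 fold change of 1.08. Without WT replicate 3 the log2 fold change was 1.25, with an adjusted p of 0.0341, and without M1BP RNAi replicate 3 it was 0.87. WT replicate 3 did not stand out for this gene, and the M1BP RNAi mean was 2.39-fold of it and 2.27-fold of the mean of the other WT libraries. On the other strand 49 of its exon bases face CR43483, which had 0 counts in all libraries.

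The remaining members were near the lower limit of these libraries or varied within a group. Hsp67Bc (FBgn0001229, 3L, 9371511 to 9372497, minus strand), the autophagy-linked member, had 8 to 22 counts in WT and 18 to 38 in M1BP RNAi. Its levels were 0.455, 0.275 and 0.252 CPM in WT and 0.416, 0.361 and 0.747 CPM in M1BP RNAi. M1BP RNAi replicate 3 was above the rest and the other libraries interleaved. The log2 fold change of 0.61 ± 0.42 (SE) had an adjusted p of 0.333 and a 95% interval of -0.40 to 1.61. It was 0.23 without M1BP RNAi replicate 3, 0.97 without WT replicate 1, 0.98 with roX1 as a covariate and 0.48 without WT replicate 3.

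The gene l(2)efl (FBgn0011296, chromosome arm 2R, 23684651 to 23685543, minus strand) is the only member outside arm 3L. It measured 1.61, 1.85 and 0.982 CPM in WT and 2.57, 0.761 and 2.26 CPM in M1BP RNAi. M1BP RNAi replicate 2 was the lowest library of all and replicate 1 the highest, so the depleted group enclosed the WT group. The log2 fold change was 0.34 ± 0.47 (SE), with an adjusted p of 0.639 and a 95% interval of -0.77 to 1.45. The value was 0.03 without M1BP RNAi replicate 1, 0.17 without M1BP RNAi replicate 3, 0.16 without WT replicate 3 and 0.54 without WT replicate 2. Without M1BP RNAi replicate 2 it was 0.70, and with roX1 as a covariate 0.89. Of its 741 exon bases, 75 face St3 on the other strand, which had a log2 fold change of 0.24 ± 0.19 (SE). Within M1BP RNAi its SD in log2 CPM was 0.93, against a median of 0.13 over all tested genes.

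Hsp67Ba (FBgn0001227, 3L, 9377802 to 9379534, minus strand), which has the longest coding sequence of the family at 1335 bases, was covered by 5, 7 and 4 reads in WT and by 16, 8 and 19 in M1BP RNAi. These are 0.103, 0.240 and 0.101 CPM and 0.289, 0.160 and 0.373 CPM, where the floor of 3 counts lies between 0.0542 and 0.103 CPM depending on the library. The groups overlapped, through WT replicate 2 and M1BP RNAi replicate 2, and DESeq2, which kept the gene, gave it 0.96 ± 0.80 (SE) on the log2 scale at an adjusted p of 0.438. Of its exon bases, 1316 of 1733 face the antisense gene asRNA:CR43481, which stood at 0.0588 CPM in WT and 0.108 CPM in M1BP RNAi on average. A difference in Hsp67Ba was thus not detected.

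**Figure D2:**
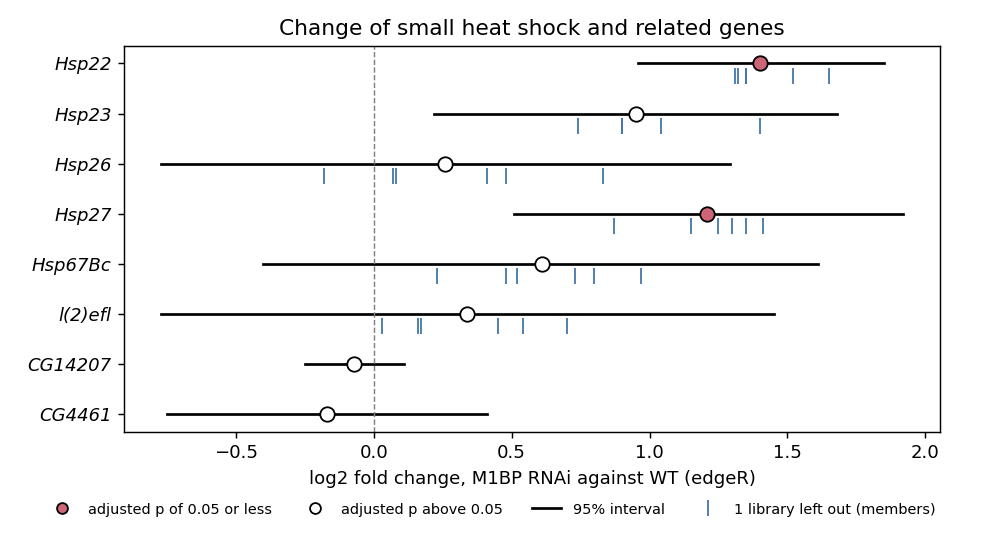
Log2 fold change of M1BP RNAi against WT from edgeR's quasi-likelihood test, with 95% intervals as lines, for the 6 members tested and the related genes CG14207 and CG4461. Ticks under each member give its value with 1 library left out in turn. Filled points mark Hsp22 and Hsp27, with adjusted p-values of 0.00215 and 0.0218.

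To compare members with each other, levels were divided by exon length (CPM per kb). In WT the order of mean CPM per kb was Hsp22 at 24.3 ± 5.57, Hsp26 at 14.0 ± 7.30, Hsp23 at 12.2 ± 5.68, l(2)efl at 2.00 ± 0.608, Hsp27 at 0.686 ± 0.104, Hsp67Bc at 0.331 ± 0.113 and Hsp67Ba at 0.0855 ± 0.0461 (SD, n = 3). Hsp26 and Hsp23 did not differ beyond their spread, since the ratio of Hsp23 to Hsp26 was 0.805, 1.90 and 0.458 in the WT libraries. Hsp22 was above Hsp26 in all 6 libraries, although its own length includes the exons of the longer transcript, which lowers its value per kb if the short one prevails. In M1BP RNAi, Hsp23 at 23.5 ± 2.71 CPM per kb stood above Hsp26 at 16.8 ± 7.79 on average but not in replicate 3, where Hsp26 was at 25.7 and Hsp23 at 20.4 CPM per kb. The order of l(2)efl and Hsp27 held in WT and in M1BP RNAi replicates 1 and 3 and turned in M1BP RNAi replicate 2, at 1.03 and 1.12 CPM per kb.

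The family summed to 42.6, 52.7 and 65.7 CPM per kb in WT and to 97.1, 107 and 124 CPM per kb in M1BP RNAi, means of 53.6 ± 11.5 and 109 ± 13.6 (SD, n = 3). Much of the gain was Hsp22, whose share of the sum was 51.2%, 38.9% and 46.8% in WT and 54.8%, 63.7% and 57.7% in M1BP RNAi. The Hsp26 share went the other way on average, from 25.2% ± 8.01 to 15.0% ± 5.22 (SD, n = 3), with overlapping libraries. Hsp23 held 23.1% and 21.9% on average. The ratio of Hsp22 to Hsp26 was 1.37 to 2.25 in WT and 2.78 to 6.04 in M1BP RNAi, with no overlap. The ratio of Hsp22 to Hsp23 was 1.10 to 3.00 in WT and 2.12 to 3.51 in M1BP RNAi, which overlap. Among all tested genes ranked by CPM per kb, Hsp22 moved from percentile 85.0 to 92.2, Hsp23 from 77.4 to 85.1 and Hsp27 from 21.8 to 36.1.

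**Figure D3:**
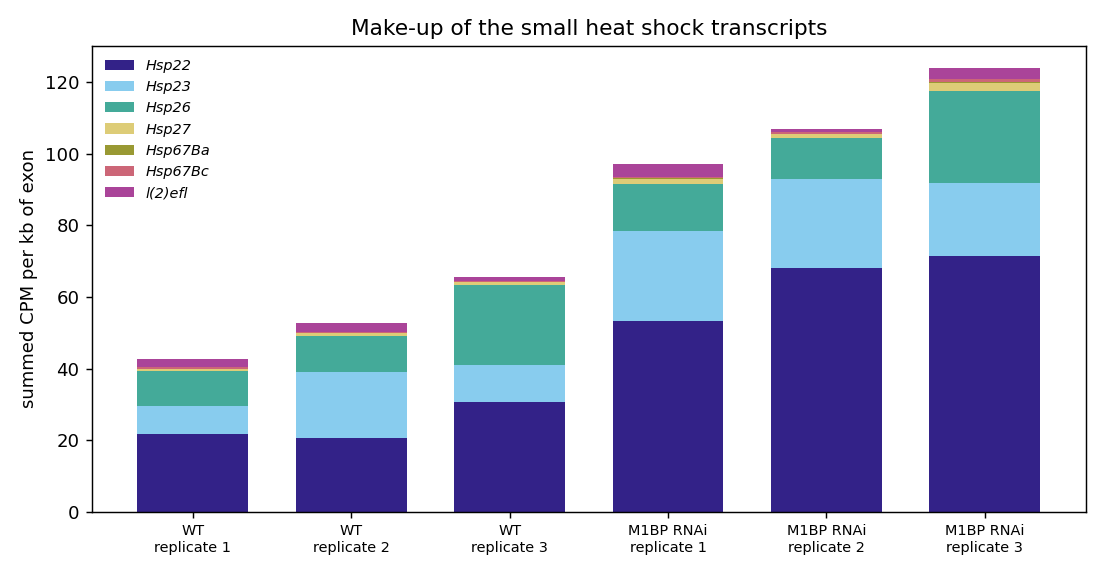
Summed CPM per kb of exon of the 7 members in each library, with bar segments for the members. The sums are 42.6 to 65.7 in WT and 97.1 to 124 in M1BP RNAi, and Hsp22 is the largest segment in each bar. Segments of Hsp67Ba and Hsp67Bc are too thin to read.

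Of the 7 members, 6 lie in a cluster of 14.2 kb on arm 3L (9371511 to 9385694) and are spread over both strands. The order along the arm is Hsp67Bc, Hsp22 within CG4456, CG4461, Hsp26, Hsp67Ba, Hsp23 and Hsp27. Hsp22 and Hsp27, the members that rose, have CG4461, Hsp26, Hsp67Ba and Hsp23 between them, while Hsp67Bc lies on the other side of Hsp22. CG4461, another gene with an alpha-crystallin domain, lies between Hsp22 and Hsp26 and was measured at -0.17 ± 0.24 (SE) on the log2 scale, at an adjusted p of 0.657. Within 20 kb on either side of the cluster there are 13 genes, of which 8 were tested. None of these was higher at an adjusted p of 0.05 and 5 were lower, beside 16.9% of all tested genes. UGP, the UDP-glucose pyrophosphorylase gene, fell by 1.01 on the log2 scale, Pdxk by 1.38, CG4452 by 0.86, CG32039 by 0.74 and eIF4E1, a cap-binding translation factor, by 0.33. Hsp23, Hsp26, Hsp27, Hsp67Ba and Hsp67Bc have no introns in the reference annotation, as is usual for strongly inducible heat shock genes, while both transcripts of l(2)efl have 3 exons.

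**Figure D4:**
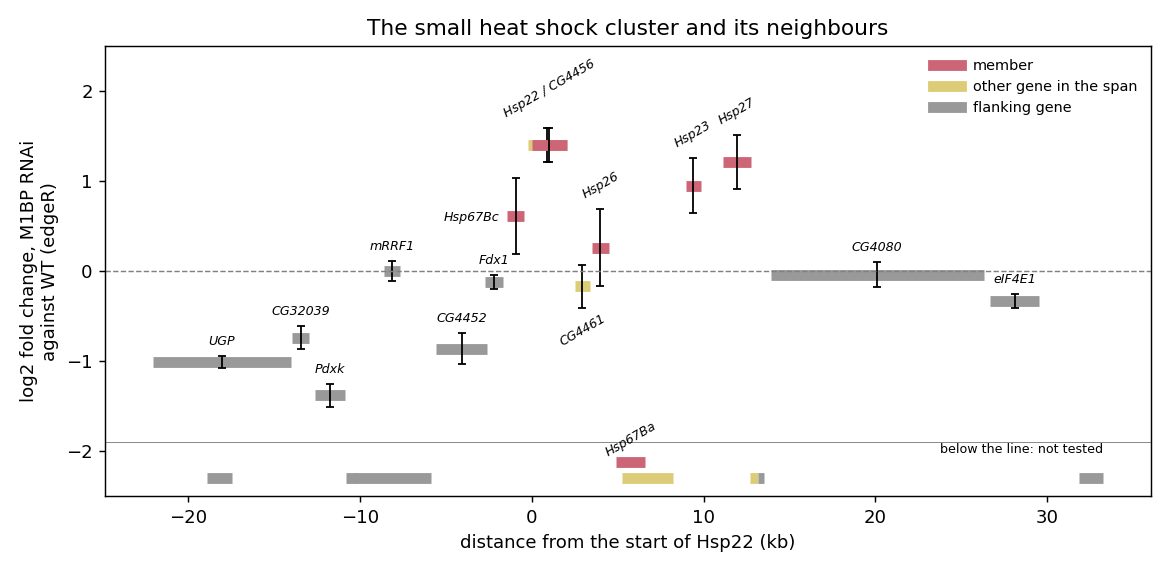
Log2 fold change (edgeR, M1BP RNAi against WT, error bars SE) of genes in and near the cluster, against distance in kb from the start of Hsp22. Bars span each gene, and those below the grey line were not tested. The 5 tested members lie above 0, while 5 of the 8 tested flanking genes, from Pdxk at -1.38 to eIF4E1 at -0.33, were lower at an adjusted p of 0.05.

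The family has other members with an alpha-crystallin domain that are not among the 7. CG14207, a constitutively expressed relative, was abundant, at 123, 134 and 120 CPM in WT and 126, 113 and 120 CPM in M1BP RNAi. The ranges of the groups overlapped. Its log2 fold change of -0.07 ± 0.08 (SE) had an adjusted p of 0.527 and a narrow 95% interval of -0.25 to 0.11. Per kb, the ratio of Hsp22 to CG14207 was 0.232 to 0.390 in WT and 0.645 to 0.922 in M1BP RNAi. CG7409 and CG13133 were too low to be tested.

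Other genes of the heat shock response were examined for comparison. Of 13 other inducible heat shock genes tested, 2 were higher and 1 lower at an adjusted p of 0.05. Over all tested genes 13.8% were higher and 16.9% lower by this rule. Hsp70Bb rose by 5.75 ± 0.40 (SE) on the log2 scale, with an adjusted p of 1.59e-04. It is one of the near-identical Hsp70 genes, and its counts are uncertain because reads that match several copies were dropped. The copies Hsp70Aa, Hsp70Ab, Hsp70Ba, Hsp70Bbb and Hsp70Bc overlapped between the groups, with log2 fold changes of 0.90 to 2.05. Their adjusted p-values in edgeR's test were 0.0829 to 0.359. Why Hsp70Bb differed from these copies was not tested. CG7130, a gene with a DnaJ domain, rose by 2.11 ± 0.50 (SE), from 0.0343 to 0.101 CPM in WT to 0.255 to 0.452 CPM in M1BP RNAi. The heat-responsive noncoding RNA lncRNA:Hsromega fell by 0.58 (SE 0.09, adjusted p = 0.00343 in edgeR's test). Hsf, the factor itself, was measured at -0.14 ± 0.08 (SE) on the log2 scale, at an adjusted p of 0.226.

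Hsp22 shares its compartment with the mitochondrial chaperones. Of 8 such genes with the protease Lon, 5 were higher and 1 lower at an adjusted p of 0.05. The shares over all tested genes were 13.8% and 16.9%. Roe1, the nucleotide exchange factor, rose by 0.81 ± 0.16 (SE) on the log2 scale. Hsp60A, the chaperonin, rose by 0.72 ± 0.22 (SE), Lon by 0.56 ± 0.09 (SE), the Hsp70 gene Hsc70-5 by 0.52 ± 0.12 (SE) and CG11267, the co-chaperonin, by 0.50 ± 0.12 (SE). CG5504, also named l(2)tid, a mitochondrial DnaJ protein, fell by 1.76 (SE 0.12, adjusted p = 1.52e-04 in edgeR's test) and was the one gene of the list called at the stricter rule. The change of Hsp22 was larger than that of any of the 5 that rose, but the difference between them was not tested.

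Among 6 partners of chaperone-assisted autophagy, in which Hsp67Bc takes part, 2 were higher and 1 lower at an adjusted p of 0.05. Beside these counts, 13.8% of all tested genes were higher and 16.9% lower. Hsc70-4, the cytosolic Hsp70 that receives the clients, rose by 0.70 ± 0.07 (SE) on the log2 scale with an adjusted p of 7.48e-04, and the autophagy receptor ref(2)P by 0.72 ± 0.09 (SE). Atg8a, which coats the autophagosome membrane, fell by 0.38 (SE 0.10). The actin-binding protein cher, at -0.40 ± 0.15 (SE), and the ubiquitin ligase STUB1 (CHIP), at -0.07 ± 0.13 (SE), did not pass. The partner stv was measured at -0.27 ± 0.11 (SE), at an adjusted p of 0.119. Of 12 ecdysone response genes tested, 0 were higher and 2 lower at an adjusted p of 0.05 in edgeR's test, beside 13.8% and 16.9% of all tested genes. The receptor EcR fell by 0.80 (SE 0.23) on the log2 scale, and Eip74EF, an early target, by 0.60 (SE 0.12). At an unadjusted p under 0.05, 4 of that list were lower and 0 higher, beside 22.5% and 18.9% of all tested genes.

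Markers of cell types in the preparation moved as follows, with their part in the values of the members not tested. Flight muscle markers summed to 159710 to 177298 CPM in WT and 115840 to 120312 CPM in M1BP RNAi. At an adjusted p of 0.05, 8 of 12 were lower and 0 higher, beside 16.9% and 13.8% of all tested genes. The largest fall among them was in Act88F, the flight muscle actin, by 0.70 (SE 0.07) on the log2 scale. These markers were abundant in all 6 libraries. Their sums depend on the TMM scaling, whose factors were 0.677 to 0.918 in WT and 1.16 to 1.31 in M1BP RNAi. Genes of the mitochondrial genome held 26.2% to 44.2% of the counts in WT and 15.1% to 23.4% in M1BP RNAi. How far the lower sums come from the scaling was not tested. Haemocyte markers summed to 21.1 to 26.2 CPM in WT and 34.0 to 45.7 CPM in M1BP RNAi. Pxn made up most of these sums, at 16.2 to 16.8 CPM in WT and 27.5 to 35.4 CPM in M1BP RNAi. Of the 5 tested, 2, Hml and Pxn, were higher at an adjusted p of 0.05, beside 13.8% of all tested genes. The others overlapped between the groups and did not pass. Their log2 fold changes were 0.31 ± 0.33 (SE) for eater, 0.29 ± 0.37 (SE) for Sr-CI and -0.41 ± 0.42 (SE) for NimC1. He was too low to be tested. Neuron markers summed to 15.1 to 26.0 and 14.6 to 19.3 CPM, trachea and tendon markers to 285 to 394 and 258 to 331 CPM, and fat body and epidermis markers as given above. None of the genes in these 4 lists passed an adjusted p of 0.05 in edgeR's test, and 1 fat body gene had an unadjusted p under 0.05. No marker in any list was at 0 in all 6 libraries.

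The profile of each member over the 6 libraries was set beside those of genes with an average log2 CPM of 3 or more, as a description by Pearson r of log2 CPM, in which the libraries share their group difference and their scaling. Hsp22 was most like l(2)37Cc, a mitochondrial prohibitin, at 0.999, and like Prp3 and CG8613, each at 0.998, and 306 of 4128 genes reached 0.95. The other members had few close matches. Hsp23 had 10 such genes, led by CG16926 (0.988) and Tango5 (0.986), and then Fer2LCH, a ferritin subunit (0.970). Hsp26 had 7, led by Tapdelta (0.977), Mmp2 (0.975) and ssh (0.971). Hsp27 had 5, led by cpb (0.991), CG8051 (0.980) and CG17162 (0.965). Hsp67Bc had 3, Sdc (0.986), shrb (0.959) and CG32196 (0.952), and l(2)efl none, its nearest being elB (0.920), SLC5A11 (0.893) and sty (0.860). Among the members themselves, r was 0.84 for Hsp22 and Hsp27, 0.70 for Hsp22 and Hsp23 and 0.03 for Hsp23 and Hsp26. After subtraction of the group means, Hsp22 and Hsp26 had r of 0.77 and Hsp22 and Hsp23 of -0.37.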

How the data were processed

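The authors deposited raw read counts per gene, with no normalisation, for uniquely mapped reads on dm6, with exon coordinates and lengths. Per the labels, libraries were made from polyA RNA with a stranded kit, and the submitters' processing notes name bcl2fastq 2.17.1.14, Subread 2.0.3, featureCounts and DESeq2 1.3.0. The aligner's settings and annotation release are not given in the sources used here. A second deposited table holds the authors' own fold changes and p-values, of which none was used, and only its gene symbols were read. Of 17494 genes, 17358 matched the reference annotation, and 53 had no symbol. There was 1 line that names no gene, with 0 counts. The counts of any pair of replicates differed beyond sampling noise (chi-square over its degrees of freedom, 46.5 to 448).

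Counts were tested with edgeR 4.0.16 (limma 3.58.1, R 4.3.3) by the quasi-likelihood test with TMM scaling and filterByExpr, and p-values were adjusted by Benjamini-Hochberg over all 8806 genes tested. The thresholds of 0.001 and 1.5-fold follow the study's methods. CPM are counts per 1000000 counts of the TMM-scaled library, and SE is the size of the log2 fold change divided by the square root of F. Poisson intervals and the floor of 3 counts cover counting error only. The code was tested on simulated counts. Alternatives were DESeq2 1.42.0, RLE scaling, no filter, a filter of 10 counts, leaving out mtDNA genes or CG4456, roX1 as a covariate, the replicate number as a block and leaving out each library.

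The members and gene lists were chosen with earlier results of these data known. By rule the text names the members, M1BP, genes whose exons overlap a member and the 3 genes most like each member, and it may name genes of the context lists at an adjusted p of 0.05 or with the smallest adjusted p, lists of up to 6 genes in whole, and genes near the cluster at that threshold. The Hsp70 copies given beside Hsp70Bb were named outside this rule. ClpX and Eip71CD had no match among the symbols. The markers were those of flight muscle, fat body, haemocyte, neuron, trachea and tendon, and epidermis.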

Additional observations from a re-analysis of the deposited data

How the results depend on the processing

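Hsp22 kept its direction and stayed at an adjusted p of 0.05 or less in 14 of 14 alternatives, with log2 fold changes of 1.01 to 1.65. At the stricter rule 1 member in place of 0, Hsp22, was called by DESeq2, with no filter on low counts and without WT replicate 3. Leaving out 1 library thus gave 0 to 1, and without WT replicate 3 sex make-up and depletion cannot be told apart. At an adjusted p of 0.05 the 2 members became 1 with roX1 as a covariate and 1 without WT replicate 1, and leaving out 1 library gave 1 to 3. The reversed values were those of Hsp26, -0.65 with roX1 as a covariate and -0.18 without M1BP RNAi replicate 3, and leaving out 1 library gave it -0.18 to 0.83. The cause was not tested. Hsp23 reached an adjusted p of 0.05 in 6 of 14 alternatives, and its log2 fold changes were 0.74 to 1.40. Over all genes, 194 calls higher and 254 lower became 572 and 478 with DESeq2, 75 and 116 with the replicate block, and 39 and 115 with roX1 as a covariate. Leaving out 1 library gave 26 to 246 higher and 44 to 231 lower. Without WT replicate 1, WT replicate 2 and M1BP RNAi replicates 1, 2 and 3 the counts were 31 and 65, 58 and 106, 41 and 76, 26 and 44, and 30 and 58. Whether the replicate numbers pair the samples was not settled. Deviations from the group means correlated at 0.307, -0.044 and 0.268 for the same number and at -0.363 to 0.23 for differing numbers. With the replicate block Hsp22 had a log2 fold change of 1.41 and Hsp23 of 1.03, and 3 members passed an adjusted p of 0.05 in place of 2. Low counts limit Hsp67Ba and Hsp67Bc.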

Other observations

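M1BP RNAi replicate 3 was the highest library for 5 of the 7 members, all but Hsp23 and l(2)efl, and for 7 of the 13 other inducible heat shock genes. Examples from the latter list, chosen after their values were seen, were Hsp68, at 6.74 CPM in that library against 0.681 to 2.35 CPM in the other 5, and DnaJ-1, at 79.6 CPM against 27.3 to 49.0 CPM. Neither passed the test between groups, with edgeR adjusted p-values of 0.209 for Hsp68 and 0.487 for DnaJ-1. Hsp70Bb behaved otherwise, at 75.4, 115 and 83.3 CPM in the M1BP RNAi libraries and 0.993, 1.37 and 2.72 CPM in WT. Hsp83, the most abundant gene of that list, was highest in WT replicate 3, at 1162 CPM, and lowest in M1BP RNAi replicate 1, at 476 CPM. The share of all tested genes that were highest in M1BP RNAi replicate 3 was not computed. Its lead was narrow for Hsp22, at 136 CPM against 130 CPM in M1BP RNAi replicate 2. For Hsp67Ba it had 19 counts against 16 in M1BP RNAi replicate 1.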
